A study of Chlorella sp. HS2 with 12 samples.

Results

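The genes described here are those whose level in the green alga Chlorella sp. HS2 differed with salt in both growth phases at once. The 6 libraries of cultures in marine medium, which held 3% (w/v) added sea salt, were set against the 6 libraries of cultures in freshwater medium, with growth phase as a covariate. All 12 libraries of the series entered the comparison. The groups were marine exponential (sampled 4 days after inoculation), marine stationary (6 days), freshwater exponential (4 days) and freshwater stationary (6 days), with 3 libraries each, which the series calls biological replicates. All cultures grew autotrophically on inorganic medium in agitated photobioreactors fed with CO2, so the media differ in sea salt as a whole, and no single ion of it was varied. Of 57640 assembled genes, 23472 had 15 or more counts summed over the marine libraries and 15 or more summed over the freshwater libraries, and these were tested. The rule left out 16699 genes that were under 15 counts in marine libraries only, 12183 under 15 counts in freshwater libraries only, 419 under 15 counts in both media and 4867 without a count. Genes with fewer counts than this in one of the media are therefore outside the comparison. Genes at a low level in one of the media can still pass, and 8917 tested genes had a group of 3 libraries without a count. At the edge of this filter, 245 genes had exactly 15 counts in one medium and were kept, and 275 genes had exactly 14 and were not. A gene is called separated below when its 6 marine values all lay on 1 side of its 6 freshwater values and it passed an FDR under 0.05 in the same direction.

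Sea salt confronts a freshwater alga with water loss, with sodium and chloride entering the cell and with a changed supply of nutrient ions. Algae are known to answer with ion pumps, with small organic solutes such as proline, glycerol and soluble sugars that balance the outside, and with a shift of carbon between growth, starch and lipid. Nitrogen enters an algal cell as nitrate, ammonium or urea, nitrate is reduced by nitrate reductase and nitrite reductase, and ammonium is joined to carbon by glutamine synthetase and glutamate synthase.

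Library totals ran from 9378062 to 11280675 counts after rounding. Levels below are CPM, counts set to an equal library size after scaling by TMM factors, a scaling that assumes most genes do not differ. The factors ran from 1.09 to 1.35 in marine libraries and from 0.752 to 0.867 in freshwater libraries, and scaling to library totals in their place moved every log2 fold change up by about 0.60. A shared stem in the library code links all of marine exponential and replicates 1 and 2 of marine stationary. Linked libraries lay closer together, at a median absolute log2 difference of 0.086 to 0.126 between replicates, than marine stationary replicates 1 and 2 lay to replicate 3 (0.484 and 0.486) or freshwater replicates lay to each other (0.218 to 0.375). Every pair of replicates still differed by more than counting noise, with ratios of chi-square to degrees of freedom from 22.4 to 88.2. If libraries with a shared stem come from 1 culture, p-values measure in part a technical spread, so counts are also given with those libraries summed. Summing leaves 1 marine exponential and 2 marine stationary libraries, against 3 in each freshwater group. That fit therefore has fewer libraries and gives stationary phase more weight than the main fit. Because RNA came from whole cultures, fewer cells of one kind and less RNA per cell cannot be told apart.

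Of the 23472 tested genes, 1807 (7.70%) were called higher in marine medium and 1911 (8.14%) lower, by edgeR's quasi-likelihood test at an FDR under 0.05. The 6 marine values lay wholly above the 6 freshwater values for 1659 genes (7.07%) and wholly below for 1443 genes (6.15%). Both conditions held for 1322 genes higher in marine medium (5.63%) and 1341 lower (5.71%), the separated genes. With library totals in place of TMM factors the separated genes were 2780 higher and 677 lower, of which 1322 and 677 were among the genes above. They were 1870 and 2685 with edgeR's own filter on low counts and 1503 and 2795 with no filter, so the ratio of higher to lower genes is set in part by the scaling and the filter. With the shared-stem libraries summed, 869 of the 1322 and 860 of the 1341 remained separated, and without marine stationary replicate 3 it was 1235 and 1322. Under every alternative on single genes named in the closing section, 840 of the higher and 612 of the lower genes remained separated.

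The separated genes held a larger share of counts in the medium where they were higher, a direction that follows from the rule that picked them. They were more often abundant than other tested genes. A mean log2 CPM of at least 4 was reached by 925 of the 1322 higher and 1136 of the 1341 lower genes, against 25.7% of tested genes. The 1322 higher genes held 14% to 15.9% of counts in marine libraries, against 2.47% to 3.85% in freshwater libraries. The 1341 lower genes held 10.9% to 15% of counts in marine libraries, against 30.1% to 35.3% in freshwater libraries. The median log2 fold change was 1.55 among the higher genes (quartiles 1.02 and 2.37) and -1.88 among the lower genes (quartiles -3.23 and -1.06), both set in part by the selection, against 0.27 over all tested genes. At least 4-fold differences were found in 455 higher and 623 lower genes, and at least 16-fold differences in 98 higher and 231 lower genes. The gap between the media was often narrow. The ratio of the nearest marine and freshwater values had a median of 1.48 (quartiles 1.17 and 2.29), and 813 genes had a ratio above 2. An NADH-cytochrome b5 reductase-like gene (TRINITY_DN1667_c0_g2) lay just inside the rule, with marine values up to 108 CPM and freshwater values from 108 CPM. An acetyl-coenzyme A synthetase gene (TRINITY_DN706_c1_g1) lay just outside it, with marine values up to 496 CPM and freshwater values from 496 CPM, at a ratio of 0.9989.

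The size of the salt effect was not the same in both phases for every separated gene, while the separation itself fixes the direction. Among the higher genes the median log2 fold change was 1.59 in exponential and 1.47 in stationary phase, and among the lower genes it was -1.71 and -1.98. Of the higher genes 854 were also called in each phase by itself, as were 1000 of the lower genes. The test of the difference between the phases' salt effects called 2419 of the 23472 tested genes (10.3%), 442 with the shared-stem libraries summed and 4954 with DESeq2. It called 257 of the 1322 higher genes (19.4%), with the larger effect in exponential phase for 189 and in stationary phase for 68. It called 327 of the 1341 lower genes (24.4%), with the larger effect in exponential phase for 126 and in stationary phase for 201. Most of these calls were lost when the shared-stem libraries were summed, which left 39 of the 257 and 62 of the 327. A group without any count was present in 8917 tested genes, 38 of the higher and 25 of the lower genes. Setting those genes' phase effects to the bound given by 3 counts over the group left the 4 medians as they were.

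**Figure D1:**
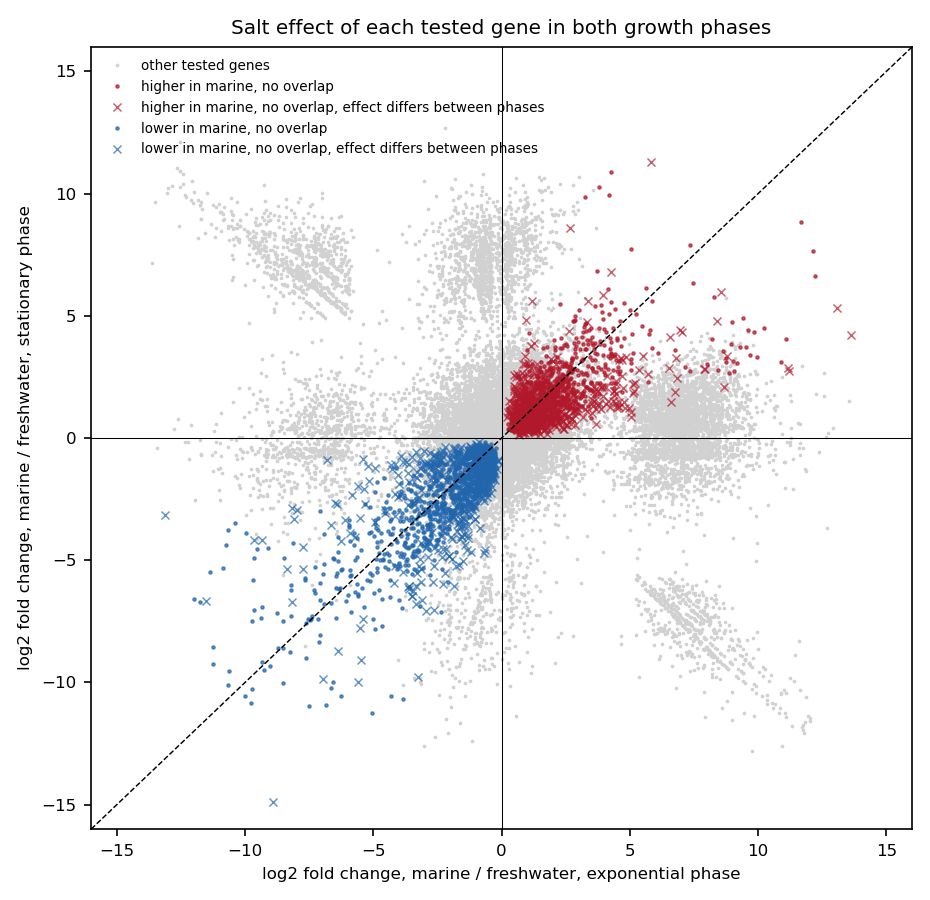
Log2 fold change of marine over freshwater in exponential phase (x axis) against stationary phase (y axis) for the 23472 tested genes. Red and blue mark the 1322 higher and 1341 lower separated genes, crosses those whose effect differs between the phases (257 and 327, of which 39 and 62 are left with the shared-stem libraries summed), the dashed line equal effects; the grey clouds far from the centre include the 8917 tested genes with a group of 3 libraries without a count, whose fitted values are not bounds.

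The largest rises and falls belonged to unlike genes, among them a urea carrier, protein kinases and a chloroplast protease. Each gene below is given by its assembly identifier and the product of its best Swiss-Prot hit, with the lowest, median and highest of 6 values per medium and the log2 fold change ± SE. A value with ± that stands alone after a gene is its log2 fold change ± SE. A name rests on the best hit alone. It can cover only part of a long gene model, and a short model can be a piece of a gene, so a level is that of the model. The urea-proton symporter DUR3 (TRINITY_DN139_c0_g2), which takes up urea, stood at 241, 396 and 872 CPM in marine libraries, against 1.95, 2.62 and 3.17 CPM in freshwater libraries (log2 fold change 7.63 ± 0.37, FDR 1.14e-07). Every marine library lay far above every freshwater library. The gene named for the Microrchidia protein 2 (TRINITY_DN1371_c2_g1), a family of chromatin ATPases, stood at 91.4, 100 and 163 CPM in marine libraries, against 0, 0.627 and 2.51 CPM in freshwater libraries (log2 fold change 7.45 ± 0.84, FDR 6.63e-05). Its freshwater stationary libraries held 0, 0.119 and 0 CPM, so the sizes of its fold change and of its difference between phases depend on the fit. The gene named for the kinase TOUSLED (TRINITY_DN425_c0_g1) stood at 3165, 7819 and 10310 CPM in marine libraries, against 25.3, 70.8 and 186 CPM in freshwater libraries (log2 fold change 6.60 ± 0.76, FDR 7.75e-05). It was one of the most abundant separated transcripts in marine medium, with 10201, 10292 and 10310 CPM in the marine exponential libraries and 3165, 3172 and 5437 CPM in the marine stationary libraries. Its gene model spans 17450 bases and 10 Pfam domains, so the name covers only a stretch of it. In the authors' deposited annotation those domains include, beside the kinase domain, a high-affinity nitrate transporter accessory domain and the major facilitator superfamily domain.

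Phospholipase D (TRINITY_DN2602_c0_g2), which cleaves membrane phospholipids to phosphatidic acid, stood at 87, 93.8 and 376 CPM in marine libraries, against 1.14, 2.33 and 4.64 CPM in freshwater libraries (log2 fold change 5.73 ± 0.41, FDR 2.19e-06). The dynein regulatory complex protein 11 gene (TRINITY_DN2871_c0_g4), named for a part of the motile axoneme, stood at 298, 384 and 391 CPM in marine libraries, against 2.65, 7.72 and 22.6 CPM in freshwater libraries (log2 fold change 5.65 ± 0.49, FDR 8.24e-06). The terminal ear1 homolog (TRINITY_DN760_c0_g2), an RNA-binding protein known from maize, stood at 5.42, 35.8 and 80.1 CPM in marine libraries, against 0.265, 0.491 and 0.832 CPM in freshwater libraries (log2 fold change 5.60 ± 0.54, FDR 1.77e-05). In all 6 of these genes the media were far apart, yet for TOUSLED and the dynein regulatory gene the effect was larger in exponential phase, and for Microrchidia 2 and terminal ear1 in stationary phase, by the test of the difference. The difference was called for 3 of these genes with the shared-stem libraries summed, and not for terminal ear1.

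At the other end, a 60S ribosomal protein L37a gene (TRINITY_DN3805_c0_g1) stood at 0, 0 and 1.84 CPM in marine libraries, against 24.6, 55.7 and 98.5 CPM in freshwater libraries (log2 fold change -7.94 ± 1.28, FDR 0.000909). In marine medium only stationary replicate 1 held counts of it and the other 5 libraries were at 0, so the size of this fold change depends on the fit. A chloroplast FTSH protease gene (TRINITY_DN1636_c0_g1), of the family that removes damaged thylakoid proteins, stood at 7.12, 8.57 and 11.8 CPM in marine libraries, against 680, 1689 and 3864 CPM in freshwater libraries (log2 fold change -7.45 ± 0.36, FDR 1.14e-07). A second FTSH gene of the same assembly component (TRINITY_DN1636_c0_g2) went the other way, at 185, 192 and 208 CPM in marine libraries, against 50.1, 58.1 and 76.4 CPM in freshwater libraries (log2 fold change 1.69 ± 0.12, FDR 1.96e-06). A putative 4-hydroxy-4-methyl-2-oxoglutarate aldolase (TRINITY_DN815_c0_g1) stood at 0.871, 2.55 and 3.63 CPM in marine libraries, against 143, 305 and 358 CPM in freshwater libraries (log2 fold change -6.90 ± 0.40, FDR 4.72e-07). Genes named for 3 protein kinases completed the lowest end. They were drkA (TRINITY_DN1130_c0_g4), with a log2 fold change of -7.34 ± 0.54 and medians of 0.712 CPM in marine and 141 CPM in freshwater libraries, drkD (TRINITY_DN718_c1_g2), with -6.75 ± 0.52 and medians of 2.88 CPM in marine and 404 CPM in freshwater libraries, and Nek7 (TRINITY_DN89_c5_g1), with -6.43 ± 0.74 and medians of 0.554 CPM in marine and 75.5 CPM in freshwater libraries. That none of these 6 genes overlapped between the media follows from the rule by which they were picked.

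**Figure D2:**
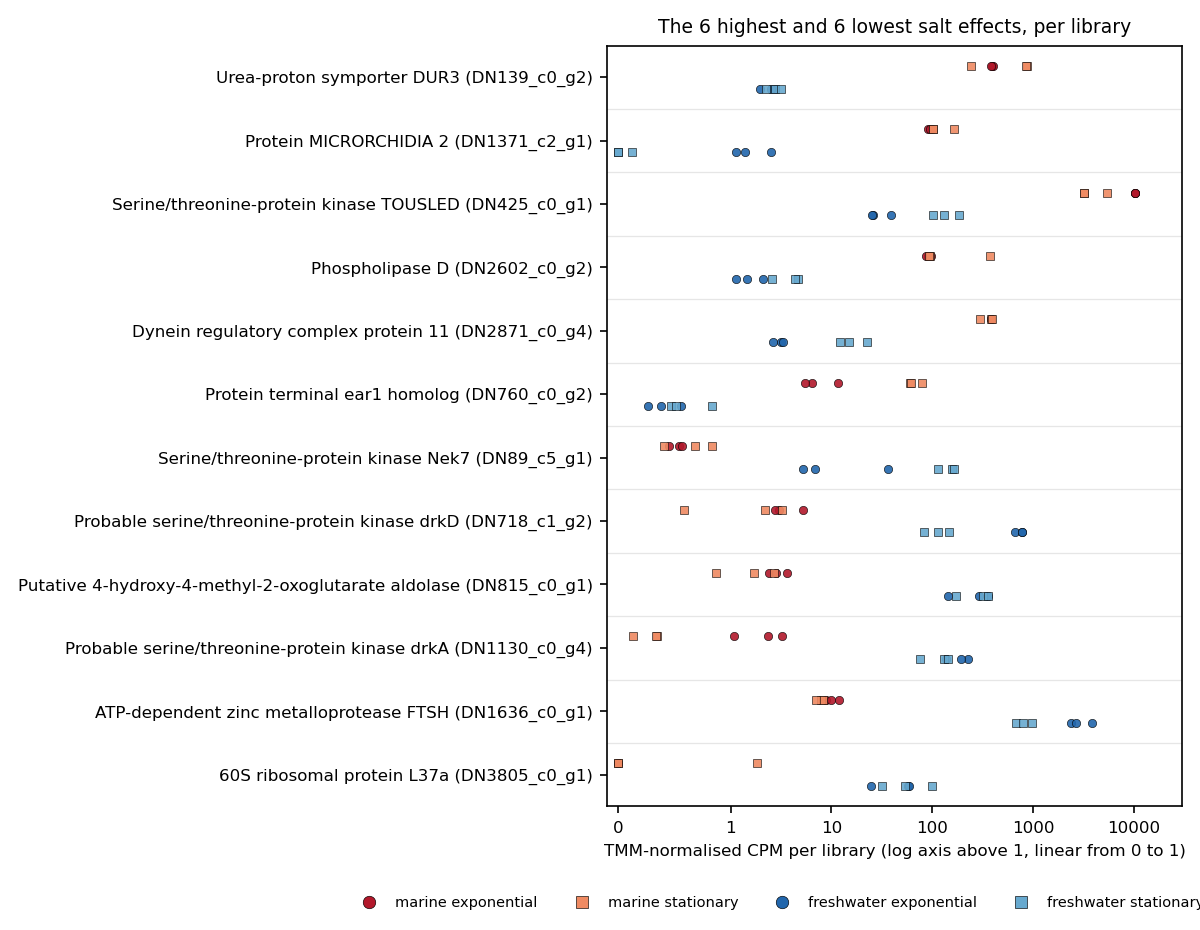
TMM-normalised CPM of each of the 12 libraries (log axis above 1) for the 6 genes with the highest and the 6 with the lowest log2 fold change among separated genes whose mean log2 CPM reaches 4 and whose product has a name. In each row the upper points are marine and the lower points freshwater libraries, with circles for exponential and squares for stationary phase. By the rule for separated genes, no marine point reaches the freshwater points of its gene.

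The assembly was made without a genome. Its genes are grouped here by the DN number of their identifier, whatever the c and g numbers that follow, and such a group is called a component. Several genes of 1 component can be copies, alleles or pieces of 1 locus. A component can also pool genes with unlike products, so an opposite sign of its sum need not come from a copy. When counts were summed over each component before the fit, 903 of the 1322 higher genes lay in a component that was itself separated in the same direction, as did 973 of the 1341 lower genes. The 23472 tested genes lay in 18661 components, so many components held only 1 tested gene. There the sum is that gene with any untested genes, and the same direction is largely fixed in advance. The summed component had the opposite sign for 189 higher and 72 lower genes, and was called in the opposite direction for 73 and 19. Of 2114 components with a separated gene, 139 held both a higher and a lower one. DUR3 is such a case. Its component also holds an unnamed gene (TRINITY_DN139_c0_g3) at 16.4, 30.6 and 42.7 CPM in marine libraries, against 137, 255 and 1167 CPM in freshwater libraries (log2 fold change -3.48 ± 0.36, FDR 2.95e-05), and the component as a whole was not called (0.62). The Microrchidia 2 component (-0.07) and the Nek7 component (0.12) were not called either, and both hold genes with other product names. Whether a gene and its partner in a component are copies of 1 gene was not tested.

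**Figure D3:**
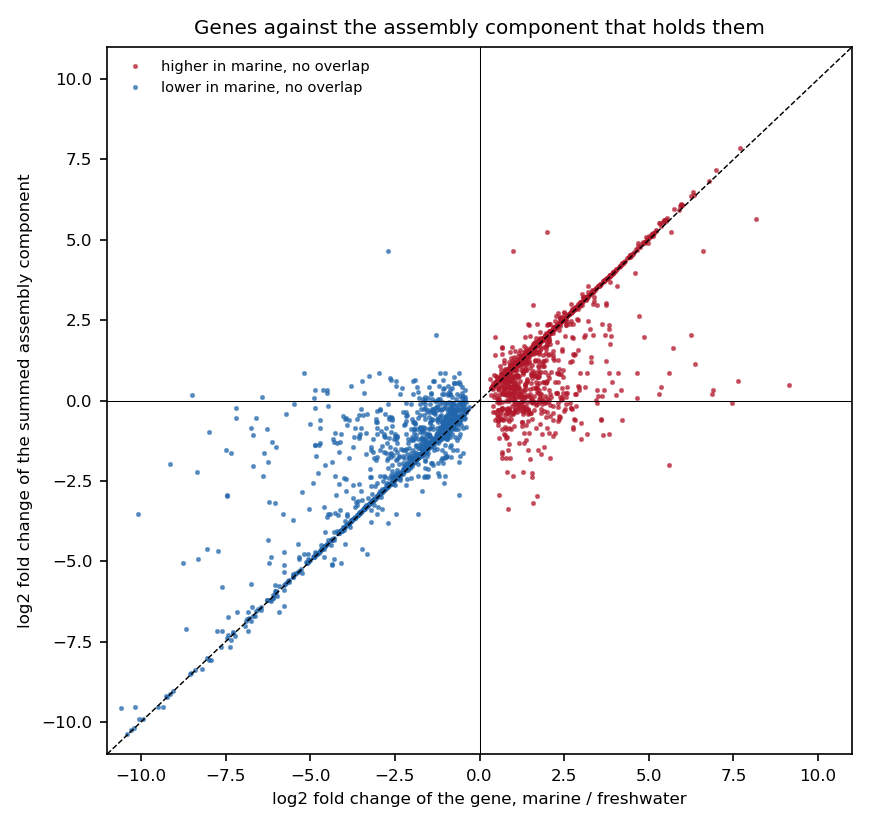
Log2 fold change of each of the 2663 separated genes (x axis) against that of its assembly component with counts summed (y axis). Points on the dashed line are components that follow their gene; 189 higher (red) and 72 lower (blue) genes lie on the other side of 0 from their component.

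Genes of nitrogen uptake and assimilation were the list with the largest share of higher genes among the lists with 20 or more tested members. Of 22 tested members (of 78 by name), 15 were higher and separated and 1 was lower, with a median log2 fold change of 1.33, against -0.11 over all 4833 tested genes with a product name, of which 618 (12.8%) were higher and 595 (12.3%) lower. With library totals, 1309 of the 4833 named genes (27.1%) were higher and 226 (4.68%) lower, at a median of 0.48, and every count under library totals below is to be read against these shares. The summed level of the members was 8008 to 12887 CPM in marine libraries and 2136 to 3179 CPM in freshwater libraries. The list held 14 higher and 0 lower with the shared-stem libraries summed, 16 higher and 1 lower without marine stationary replicate 3 and 16 higher and 1 lower with library totals. All separated members of this and of the next lists of nutrient, carbon and solute metabolism are open to be named here, a choice made after their values were seen.

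Carriers of urea, ammonium and nitrate were higher. Beside DUR3, ammonium transporter 1 member 3 (TRINITY_DN456_c1_g1), a high-affinity ammonium carrier, stood at 214, 232 and 1425 CPM in marine libraries, against 12.8, 19.5 and 25.1 CPM in freshwater libraries (log2 fold change 4.66 ± 0.47, FDR 2.73e-05). Marine stationary replicates 1 and 2 held 1425 and 1379 CPM, while replicate 3, at 239 CPM, lay beside the marine exponential libraries. A probable peptide or nitrate transporter (TRINITY_DN702_c0_g1) stood at 124, 136 and 334 CPM in marine libraries, against 11.6, 14.5 and 17.6 CPM in freshwater libraries (log2 fold change 3.68 ± 0.24, FDR 8.73e-07). Its component held 2 unnamed genes that were lower (TRINITY_DN702_c1_g1, -4.86, and TRINITY_DN702_c1_g2, -4.50), and the component was not called. High-affinity nitrate transporters 2.6 (TRINITY_DN668_c1_g2) and 2.2 (TRINITY_DN668_c1_g1) rose as well, at a log2 fold change of 1.50 ± 0.25 and 1.81 ± 0.38, both at a low level and in 1 component whose sum had the opposite sign without a call. That component also pools a phytyltransferase gene of another c number (TRINITY_DN668_c0_g1). This gene was lower, at 62.4, 96.8 and 117 CPM in marine libraries, against 152, 160 and 186 CPM in freshwater libraries.

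The enzymes downstream rose with them. Nitrate reductase (TRINITY_DN580_c1_g1), which turns nitrate to nitrite, stood at 2020, 6283 and 8551 CPM in marine libraries, against 249, 635 and 1013 CPM in freshwater libraries (log2 fold change 3.12 ± 0.54, FDR 0.00159). Its marine exponential libraries held 8023, 8551 and 7731 CPM and its marine stationary libraries 2020, 2084 and 4836 CPM, and the salt effect was larger in exponential phase, with log2 fold changes of 4.44 in exponential and 1.80 in stationary phase (FDR of the difference 0.00848, not called with the shared-stem libraries summed). This gene model is 10099 bases long and holds 7 Pfam domains, among them those of nitrite reductase, the enzyme of the next step, beside those of nitrate reductase. The model named for TOUSLED, which is not counted in the list, carries a nitrate transporter accessory domain and was likewise higher in the marine exponential libraries than in the marine stationary ones. A second nitrate reductase gene (TRINITY_DN384_c0_g1) stood at 41.6, 47.2 and 51.5 CPM in marine libraries, against 11.5, 14.8 and 19.3 CPM in freshwater libraries (log2 fold change 1.66 ± 0.15, FDR 1.33e-05). The model of this second gene is 14402 bases long and holds 7 Pfam domains. CNX1 (TRINITY_DN583_c0_g1), which makes the molybdenum cofactor that nitrate reductase carries, rose by 1.20 ± 0.20 on the log2 scale. Cytosolic glutamine synthetase (TRINITY_DN1744_c0_g1), which joins ammonium to glutamate, stood at 985, 1346 and 1432 CPM in marine libraries, against 262, 336 and 364 CPM in freshwater libraries (log2 fold change 2.00 ± 0.14, FDR 1.62e-06). Glutamate synthase (TRINITY_DN165_c0_g1), its partner, stood at 454, 770 and 886 CPM in marine libraries, against 296, 372 and 397 CPM in freshwater libraries (log2 fold change 1.02 ± 0.15, FDR 0.000484). The synthase model is 15297 bases long and holds 6 Pfam domains. Phase effects were 1.91 in exponential and 2.09 in stationary phase for the synthetase and 1.15 in exponential and 0.90 in stationary phase for the synthase, and neither difference passed the test.

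Allantoinase (TRINITY_DN2940_c0_g1, 1.06 ± 0.12) and allantoate deiminase (TRINITY_DN2980_c0_g1, 1.77 ± 0.13), successive steps in the breakdown of purines, were higher, as were a primary amine oxidase (TRINITY_DN2445_c0_g2, 3.02 ± 0.34) and its peroxisomal relative (TRINITY_DN147_c0_g2, 1.47 ± 0.19), which release ammonia from amines. NADP-specific glutamate dehydrogenase had genes in both directions, in separate components. Gene TRINITY_DN1785_c0_g1 was higher (medians of 87.8 CPM in marine and 35.1 CPM in freshwater libraries) and TRINITY_DN2745_c0_g4, the 1 lower member, stood at 0.837, 4.08 and 8.04 CPM in marine libraries, against 16.6, 98.3 and 298 CPM in freshwater libraries (log2 fold change -4.08 ± 0.78, FDR 0.00313). Of the 6 other members, a second glutamate synthase gene (TRINITY_DN165_c0_g2) was called higher with overlap (log2 fold change 0.91 ± 0.23, FDR 0.0161). Chloroplast glutamine synthetase (TRINITY_DN3132_c0_g1) did not pass, at a log2 fold change of 0.22 ± 0.14, nor did glutamate dehydrogenase A (TRINITY_DN224_c1_g1, -1.24 ± 0.52).

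**Figure D4:**
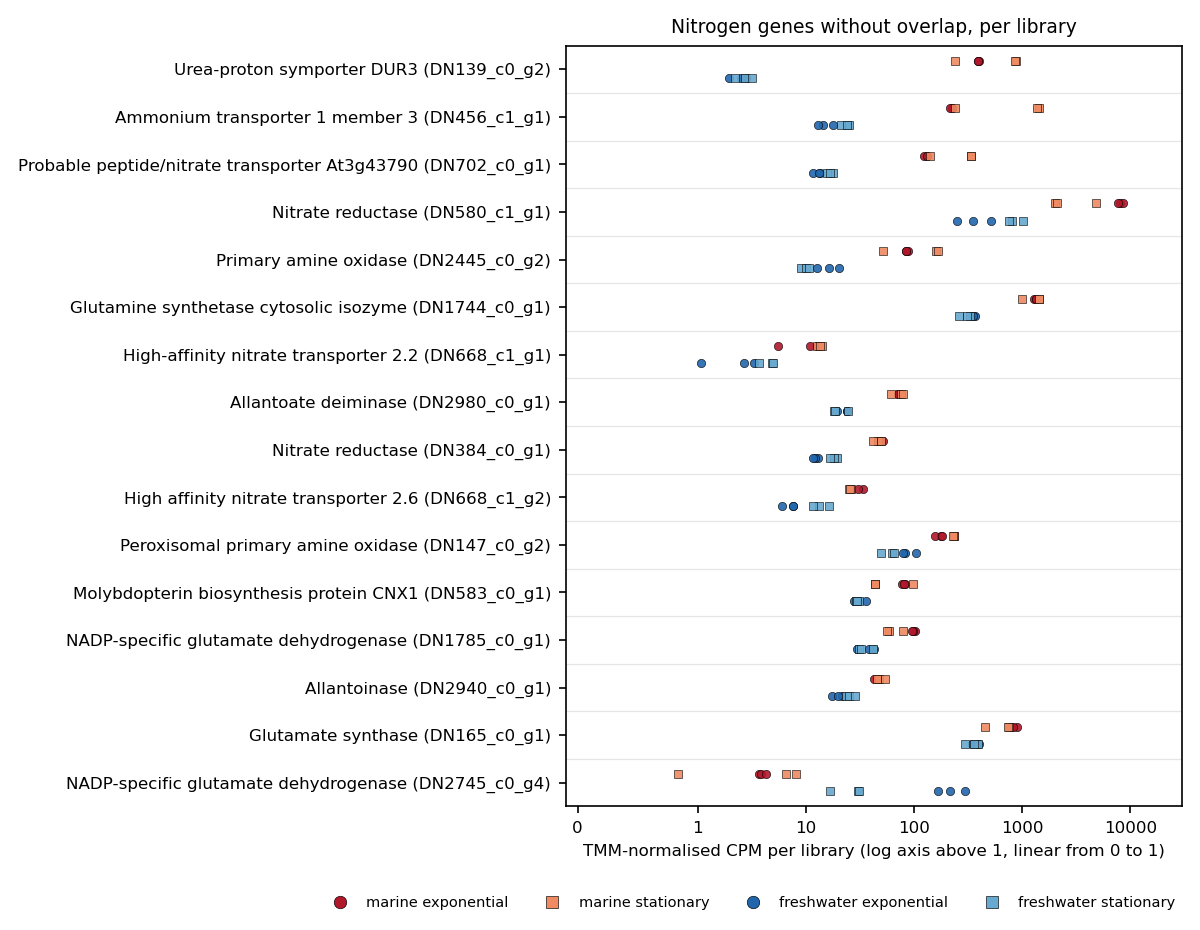
TMM-normalised CPM of each of the 12 libraries (log axis above 1) for the 16 separated members of the nitrogen list, ordered by log2 fold change. Upper points in each row are marine and lower points freshwater libraries; the marine points lie to the right in 15 genes and to the left in 1, a glutamate dehydrogenase gene.

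Enzymes that make or convert small solutes were the list with the next largest share of higher genes. Of 29 tested members 11 were higher (37.9%) and 1 was lower (3.45%), with a median log2 fold change of 0.62, against 12.8% and 12.3% over all named genes. The counts were 9 higher and 1 lower with the shared-stem libraries summed and 16 higher and 0 lower with library totals. Proline is made from glutamate through pyrroline-5-carboxylate. Pyrroline-5-carboxylate reductase (TRINITY_DN2936_c0_g1), the last step, stood at 42, 44.2 and 81.9 CPM in marine libraries, against 5.59, 8.36 and 12.9 CPM in freshwater libraries (log2 fold change 2.57 ± 0.28, FDR 4.58e-05). A second gene of this enzyme (TRINITY_DN635_c0_g1) rose by 1.15 ± 0.19 on the log2 scale. Glutamate 5-kinase (TRINITY_DN3484_c0_g1), the first step, stood at 63.7, 82.8 and 117 CPM in marine libraries, against 15.7, 26.6 and 34.5 CPM in freshwater libraries (log2 fold change 1.76 ± 0.20, FDR 6.74e-05), and delta-1-pyrroline-5-carboxylate synthase (TRINITY_DN715_c0_g2) was higher by 0.66 ± 0.11. Ornithine aminotransferase (TRINITY_DN880_c2_g1), which feeds the same intermediate from ornithine, was the 1 lower member, at 68.4, 105 and 113 CPM in marine libraries, against 148, 205 and 250 CPM in freshwater libraries (log2 fold change -1.11 ± 0.18, FDR 0.000886). With library totals it was not called.

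Glycerol and sugar enzymes rose beside the proline path. Glycerol-3-phosphate dehydrogenase, which makes the precursor of glycerol and of glycerolipids, was higher in TRINITY_DN3869_c0_g1, at 88.1, 97.8 and 113 CPM in marine libraries, against 26.2, 38.1 and 45.9 CPM in freshwater libraries (log2 fold change 1.42 ± 0.13, FDR 1.25e-05), and in TRINITY_DN3114_c0_g1 (1.76 ± 0.38). The mitochondrial enzyme SDP6 (TRINITY_DN190_c0_g1), which uses up that precursor instead of making it, was higher by 0.62 ± 0.09. Sucrose synthase 3 (TRINITY_DN1500_c0_g1) rose more in stationary phase, with log2 fold changes of 0.59 in exponential and 1.96 in stationary phase. A sorbitol dehydrogenase gene (TRINITY_DN2559_c0_g1) was higher by 1.59 ± 0.23, as were 2 probable galactinol-sucrose galactosyltransferases (TRINITY_DN610_c0_g1, 1.17 ± 0.15, and TRINITY_DN2917_c1_g1, 1.02 ± 0.22), which make raffinose. The level of sucrose synthase ran from 216 to 249 CPM in marine libraries and from 55.6 to 172 CPM in freshwater libraries.

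Of 30 tested members of the starch list 8 were higher (26.7%), 2 lower (6.67%) and 20 neither, against 12.8% and 12.3% over all named genes. Their summed level was 4891 to 6817 CPM in marine libraries and 3726 to 4374 CPM in freshwater libraries. The enzyme of amylose synthesis, granule-bound starch synthase 1 (TRINITY_DN2954_c0_g1), stood at 553, 615 and 728 CPM in marine libraries, against 69, 114 and 151 CPM in freshwater libraries (log2 fold change 2.56 ± 0.15, FDR 5.72e-07). The lowest marine library lay well above the highest freshwater one. Granule-bound starch synthase 2 was higher in 2 genes (TRINITY_DN2798_c0_g1, 1.25 ± 0.09, and TRINITY_DN436_c1_g1, 0.99 ± 0.19), and isoamylase 1 (TRINITY_DN4353_c0_g1), which trims branches, was higher by 1.87 ± 0.27. Of the enzymes of breakdown, glycogen phosphorylase 1 (TRINITY_DN1146_c0_g2) stood at 493, 758 and 945 CPM in marine libraries, against 72.7, 152 and 276 CPM in freshwater libraries (log2 fold change 2.43 ± 0.39, FDR 0.000873), with a second gene (TRINITY_DN1146_c0_g3) higher by 2.16 ± 0.35. Chloroplast alpha-amylase 3 (TRINITY_DN2089_c0_g1, 1.25 ± 0.22) and alpha-glucan water dikinase (TRINITY_DN2215_c0_g1, 0.72 ± 0.13), which marks starch for breakdown, were higher too. Another alpha-amylase (TRINITY_DN1535_c0_g1) was near 1 CPM in marine medium, at 0.837, 1.05 and 1.43 CPM in marine libraries, against 15.3, 26.1 and 33.7 CPM in freshwater libraries (log2 fold change -4.58 ± 0.29, FDR 8.76e-07). Beta-amylase 3 (TRINITY_DN2166_c0_g1) fell by 0.79 ± 0.16 and was not called with library totals. The list had 14 higher and 1 lower with library totals.

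Central carbon metabolism held genes in both directions. In the list of glycolysis and pyruvate metabolism 16 of 67 tested members were higher (23.9%) and 8 lower (11.9%). Over all named genes the shares were 12.8% and 12.3%, so the share of lower genes was near that of all named genes. Their summed level was 5630 to 7861 CPM in marine libraries and 9448 to 14167 CPM in freshwater libraries. The higher side included enzymes of the downward path. ATP-dependent 6-phosphofructokinase 5 (TRINITY_DN164_c0_g1), a committed step of glycolysis, stood at 254, 276 and 401 CPM in marine libraries, against 32.1, 46.5 and 55.3 CPM in freshwater libraries (log2 fold change 2.79 ± 0.14, FDR 1.36e-07), and a second gene of it (TRINITY_DN1948_c0_g1) was higher by 1.14 ± 0.14. Phosphoglycerate mutase (TRINITY_DN957_c0_g2, 1.95 ± 0.12), pyruvate kinase (TRINITY_DN1594_c0_g1, 2.41 ± 0.36, and TRINITY_DN1902_c0_g1, 2.38 ± 0.43), phosphoenolpyruvate carboxylase (TRINITY_DN1951_c0_g2, 1.68 ± 0.16) and pyruvate decarboxylase (TRINITY_DN1664_c0_g1, 2.22 ± 0.35) were higher as well. Both chloroplast subunits of the first enzyme of pyruvate dehydrogenase rose, alpha (TRINITY_DN2238_c0_g1, 1.40 ± 0.12) and beta (TRINITY_DN2608_c0_g1, 0.82 ± 0.14). A chloroplast acetyltransferase component of pyruvate dehydrogenase (TRINITY_DN4937_c0_g1) was higher, at a log2 fold change of 1.03. The mitochondrial acetyltransferase component (TRINITY_DN3866_c0_g1) was lower, at -1.05.

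The lower side included enzymes of gluconeogenesis and of pyruvate cleavage. Phosphoenolpyruvate carboxykinase (TRINITY_DN616_c0_g1), which starts gluconeogenesis from oxaloacetate, stood at 189, 324 and 425 CPM in marine libraries, against 1157, 1815 and 2425 CPM in freshwater libraries (log2 fold change -2.62 ± 0.16, FDR 6.81e-07). Formate acetyltransferase (TRINITY_DN1348_c0_g1), the pyruvate formate-lyase of algal fermentation, stood at 119, 659 and 1029 CPM in marine libraries, against 3259, 4622 and 5348 CPM in freshwater libraries (log2 fold change -3.35 ± 0.50, FDR 0.000571), with the larger fall in stationary phase (-2.16 in exponential and -4.54 in stationary phase), a difference not called with the shared-stem libraries summed. Chloroplast fructose-1,6-bisphosphatase (TRINITY_DN3611_c0_g1, -1.14 ± 0.26), an aldehyde-alcohol dehydrogenase (TRINITY_DN2126_c0_g1, -2.27 ± 0.35) and an alcohol dehydrogenase (TRINITY_DN34430_c0_g1, -5.92 ± 0.91) were lower. With library totals the list held 23 higher and 4 lower genes, and with the shared-stem libraries summed 15 higher and 5 lower.

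In the tricarboxylic acid and glyoxylate cycles 2 of 32 tested members were higher (6.25%) and 5 lower (15.6%), against 12.8% and 12.3% over all named genes. Under library totals 3 were higher and 4 lower. Citrate synthase (TRINITY_DN865_c0_g1), the entry of the cycle, stood at 179, 357 and 491 CPM in marine libraries, against 1722, 3774 and 5309 CPM in freshwater libraries (log2 fold change -3.38 ± 0.18, FDR 1.96e-07). Its phase effects were -3.45 in exponential and -3.31 in stationary phase. Both enzymes of the glyoxylate bypass, which lets cells build sugar from acetyl units, were lower. Isocitrate lyase (TRINITY_DN176_c1_g1) stood at 179, 207 and 214 CPM in marine libraries, against 625, 1029 and 1421 CPM in freshwater libraries (log2 fold change -2.23 ± 0.19, FDR 7.62e-06). Malate synthase (TRINITY_DN1209_c0_g1) stood at 6.78, 10.7 and 13.8 CPM in marine libraries, against 94.8, 215 and 331 CPM in freshwater libraries (log2 fold change -4.18 ± 0.32, FDR 3.14e-06). A succinate dehydrogenase gene (TRINITY_DN1005_c0_g1) fell by 1.47 ± 0.16. NADP-dependent malic enzyme, which makes NADPH and pyruvate from malate, was higher in 2 genes (TRINITY_DN3894_c0_g1, 1.22 ± 0.13, and TRINITY_DN1988_c0_g2, 1.22 ± 0.19). The fifth lower gene, 2-isopropylmalate synthase (TRINITY_DN438_c0_g1, -0.71 ± 0.14), belongs to leucine synthesis and entered the list through its name.

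Sulfur assimilation and the methionine cycle had the largest share of lower genes among the lists with 20 or more tested members. Of 24 tested members 1 was higher (4.17%) and 7 were lower (29.2%), with a median log2 fold change of -0.81, and their summed level was 2927 to 5268 CPM in marine libraries and 12785 to 17503 CPM in freshwater libraries. Under the alternatives the list held 3 higher and 1 lower at a median of -0.20 under library totals, against a median of 0.48 over all named genes, and 0 higher and 3 lower with the shared-stem libraries summed. Adenosylhomocysteinase (TRINITY_DN98_c0_g1), which clears the product of methylation reactions, stood at 322, 1506 and 2104 CPM in marine libraries, against 8465, 10314 and 14406 CPM in freshwater libraries (log2 fold change -3.34 ± 0.44, FDR 0.000232) and made up more than any other member of the list. It was lower with library totals as well (-2.77). Sulfite reductase (TRINITY_DN1665_c0_g1), which makes sulfide, stood at 148, 234 and 274 CPM in marine libraries, against 376, 566 and 675 CPM in freshwater libraries (log2 fold change -1.36 ± 0.21, FDR 0.000769). The step before it, 5'-adenylylsulfate reductase (TRINITY_DN3802_c0_g1, -1.15 ± 0.24), and the step after it, cysteine synthase (TRINITY_DN2991_c0_g1, -1.05 ± 0.18, TRINITY_DN150_c0_g1, -0.86 ± 0.10, and TRINITY_DN2172_c0_g1, -0.77 ± 0.15), were lower, none of them called with library totals. A cobalamin-independent methionine synthase (TRINITY_DN3772_c0_g1) fell by 2.66 ± 0.75, likewise without a call under library totals, and methionine synthase reductase (TRINITY_DN328_c2_g3) was higher by 0.67 ± 0.17. The methionine synthase gene held 14.7 to 25.7 CPM in marine libraries, against 656 CPM in freshwater exponential replicate 1 and 35.4 to 78.8 CPM in the other 5 freshwater libraries. Without freshwater exponential replicate 1 its log2 fold change was -1.61, and it was called with 9 of the 12 libraries left out in turn.

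Phosphate permease and phosphatase genes stood among the higher ones. In the list of phosphate and metal transport 9 of 33 tested members were higher (27.3%) and 4 lower (12.1%), against 12.8% and 12.3% over all named genes. A phosphate permease (TRINITY_DN3088_c0_g2), of the kind that is repressed by phosphate in fungi, stood at 199, 250 and 273 CPM in marine libraries, against 4.04, 25 and 39.1 CPM in freshwater libraries (log2 fold change 3.78 ± 0.46, FDR 0.000117). Genes named for purple acid phosphatases, a family that frees phosphate from organic esters and that here includes 3 forms named as probably inactive, were higher in 4 cases, led by TRINITY_DN1302_c0_g1 at 145, 159 and 261 CPM in marine libraries, against 6.56, 10.3 and 28.2 CPM in freshwater libraries (log2 fold change 3.90 ± 0.26, FDR 1.05e-06), followed by TRINITY_DN2410_c0_g1 (1.98 ± 0.24), TRINITY_DN491_c0_g1 (1.86 ± 0.19) and TRINITY_DN3032_c0_g1 (0.81 ± 0.13), and lower in 1 (TRINITY_DN2150_c0_g2, -2.64 ± 0.44). An SPX domain gene (TRINITY_DN2825_c0_g1), of the family of phosphate sensors, was lower, at 96.8, 175 and 193 CPM in marine libraries, against 376, 862 and 1341 CPM in freshwater libraries (log2 fold change -2.39 ± 0.36, FDR 0.000592). Magnesium transporters of the MRS2 family were higher in 2 genes (TRINITY_DN73_c1_g1, 1.96 ± 0.14, and TRINITY_DN3229_c0_g1, 1.01 ± 0.22), while an nramp1-like metal transporter (TRINITY_DN3078_c0_g1, -2.45 ± 0.43) and a putative zinc transporter (TRINITY_DN1541_c0_g1, -1.48 ± 0.19) were lower. The list held 14 higher and 2 lower under library totals.

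Of 66 tested members of the list of sodium, potassium, calcium and proton transport 9 were higher (13.6%) and 6 lower (9.09%), near the shares over all named genes, and with library totals it was 24 and 1. A gene named for the sodium/potassium-transporting ATPase alpha subunit (TRINITY_DN155_c0_g1), the pump that exports sodium from animal cells, stood at 784, 1081 and 1112 CPM in marine libraries, against 40.7, 131 and 310 CPM in freshwater libraries (log2 fold change 3.15 ± 0.45, FDR 0.00041). The effect was larger in exponential phase (4.39 in exponential and 1.91 in stationary phase). The vacuolar proton pyrophosphatase (TRINITY_DN1448_c0_g1), which acidifies the vacuole and so drives sodium into it, stood at 328, 488 and 556 CPM in marine libraries, against 1210, 1505 and 1760 CPM in freshwater libraries (log2 fold change -1.74 ± 0.17, FDR 1.78e-05). Among other carriers a gene named for an ABC transporter of family G (TRINITY_DN1405_c0_g1) stood at 627, 946 and 1033 CPM in marine libraries, against 30.8, 98.2 and 595 CPM in freshwater libraries (log2 fold change 3.01 ± 0.65, FDR 0.00702, and 3.61 without freshwater stationary replicate 2). Its model is only 287 bases long and holds no Pfam domain. A gene named for an H(+)/hexose cotransporter (TRINITY_DN568_c0_g2), with a model of 24313 bases and 9 Pfam domains, fell by 1.18 ± 0.16.

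Photosynthesis genes contributed few shared changes. Of 24 tested antenna genes 1 was lower and separated and none was higher, although their median log2 fold change was -1.53. Their summed level was 2443 to 4998 CPM in marine libraries and 3139 to 122405 CPM in freshwater libraries, which overlap. The median turned to 0.38 with the shared-stem libraries summed, a fit that gives stationary phase more weight, and the cause of the turn was not tested. The 1 separated antenna gene, a chlorophyll a-b binding protein (TRINITY_DN546_c0_g3), stood at 49.8, 55.9 and 79.8 CPM in marine libraries, against 96.7, 1097 and 2269 CPM in freshwater libraries (log2 fold change -3.12 ± 0.86, FDR 0.0265), and its effect differed between the phases (-5.40 in exponential and -0.85 in stationary phase). Its log2 fold change was -3.74 without freshwater stationary replicate 1, and it was called with 9 of the 12 libraries left out in turn. Of 39 genes of photosystems and electron transport 1 was higher and 3 were lower, while library totals gave 4 and 2. The higher one was PROTON GRADIENT REGULATION 5 (TRINITY_DN1551_c0_g1), which serves cyclic electron flow, at 54.6, 77.7 and 106 CPM in marine libraries, against 5.87, 12.1 and 18.5 CPM in freshwater libraries (log2 fold change 2.77 ± 0.15, FDR 2.11e-07). The gamma chain of the chloroplast ATP synthase (TRINITY_DN1363_c0_g1) stood at 70.4, 89.2 and 96.9 CPM in marine libraries, against 292, 495 and 674 CPM in freshwater libraries (log2 fold change -2.41 ± 0.16, FDR 1.34e-06). In chlorophyll and heme biosynthesis 8 of 33 members were higher (24.2%) and 2 lower (6.06%), beside 12.8% and 12.3% over all named genes. With library totals it was 11 and 0. The ChlH subunit of magnesium chelatase (TRINITY_DN4273_c0_g1), which opens the chlorophyll branch, stood at 79.4, 155 and 171 CPM in marine libraries, against 17.5, 31.6 and 45.5 CPM in freshwater libraries (log2 fold change 2.19 ± 0.26, FDR 9.05e-05). Uroporphyrinogen decarboxylase 2 (TRINITY_DN6635_c0_g1, 2.24 ± 0.36), chlorophyll synthase (TRINITY_DN8715_c1_g1, 1.99 ± 0.37) and protoporphyrinogen oxidase (TRINITY_DN11_c0_g1, 0.93 ± 0.11) were higher, and coproporphyrinogen-III oxidase (TRINITY_DN880_c5_g1, -2.36 ± 0.50) was lower.

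Of 65 antioxidant genes 12 were higher (18.5%), 9 lower (13.8%) and 44 neither, near the shares over all named genes, and library totals gave 22 and 4. The glutathione and ascorbate cycles, which remove hydrogen peroxide, held some of the abundant higher genes. Monodehydroascorbate reductase 1 (TRINITY_DN1476_c0_g1), which restores ascorbate, stood at 437, 450 and 472 CPM in marine libraries, against 86, 99.2 and 112 CPM in freshwater libraries (log2 fold change 2.19 ± 0.09, FDR 5.38e-08). Chloroplast glutathione reductase (TRINITY_DN959_c0_g1) stood at 333, 452 and 516 CPM in marine libraries, against 61.6, 88.9 and 119 CPM in freshwater libraries (log2 fold change 2.26 ± 0.20, FDR 1.13e-05). Glutathione hydrolase 1 (TRINITY_DN729_c0_g2, 3.88 ± 0.31), superoxide dismutase (TRINITY_DN816_c0_g1, 1.57 ± 0.26), ferritin-4 (TRINITY_DN2807_c1_g1, 1.38 ± 0.12) and mitochondrial peroxiredoxin-5 (TRINITY_DN2777_c0_g1, 1.36 ± 0.21) were also higher. Lower genes included L-ascorbate oxidase (TRINITY_DN2352_c0_g1, -3.57 ± 0.20), peroxiredoxin-2 (TRINITY_DN670_c0_g2, -1.96 ± 0.20) and the chloroplast peroxiredoxin BAS1 (TRINITY_DN316_c0_g1, -1.30 ± 0.16). Heat shock proteins and chaperones had 12 higher (10.2%) and 9 lower (7.63%) of 118 tested members, both below the 12.8% and 12.3% over all named genes. With library totals it was 25 and 0. Heat shock protein 90 (TRINITY_DN1083_c0_g1) was lower, at 369, 489 and 600 CPM in marine libraries, against 750, 999 and 1350 CPM in freshwater libraries (log2 fold change -1.13 ± 0.18, FDR 0.000821), and vacuolar transporter chaperone 4 (TRINITY_DN242_c0_g2), which makes polyphosphate in yeast and is no folding chaperone, was higher by 1.71 ± 0.13.

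Lists of gene expression and respiration held few higher genes, and their shares of lower genes lay on both sides of the 12.3% over all named genes. Pre-mRNA splicing had 2 higher and 16 lower of 67 (23.9% lower, median -0.47), and 9 and 3 (median 0.12) with library totals. Plastid, mitochondrial and bacterial-type ribosomal proteins had 1 higher and 11 lower of 58 (19.0% lower, median -1.02), and 3 and 2 (median -0.44) with library totals. Translation factors and aminoacyl-tRNA ligases had 4 higher and 17 lower of 113 (median -0.40), and 14 and 0 (median 0.12) with library totals. The respiratory chain had 0 higher and 7 lower of 58 (12.1% lower, median -0.50), and 6 and 1 (median 0.06) with library totals. Ribosome biogenesis had 1 higher and 4 lower of 49 (8.16% lower, median -0.22), and 10 and 1 (median 0.36) with library totals. Cytosolic ribosomal proteins had 0 higher and 10 lower of 126 (7.94% lower, median -0.53), and 2 and 1 (median 0.07) with library totals. With library totals all 6 medians lay below the 0.48 of all named genes. With edgeR's own filter on low counts, cytosolic ribosomal proteins had 0 higher and 96 lower of 187 and translation factors 4 and 60 of 171. The respiratory chain had 0 and 23 of 83, splicing 2 and 18 of 86 and ribosome biogenesis 1 and 17 of 78. Plastid, mitochondrial and bacterial-type ribosomal proteins had 3 and 12 of 77. All genes under that filter gave 1870 and 2685 of 31491, so the shares in these lists depend on the filter. Single genes among them were lower under both scalings. The 50S ribosomal protein L27 (TRINITY_DN966_c0_g1) stood at 47.6, 72.9 and 99.1 CPM in marine libraries, against 641, 981 and 1100 CPM in freshwater libraries (log2 fold change -3.73 ± 0.25, FDR 1.05e-06; -3.13 with library totals). A pre-mRNA-splicing helicase (TRINITY_DN196_c1_g1) stood at 167, 462 and 506 CPM in marine libraries, against 1746, 2763 and 3766 CPM in freshwater libraries (log2 fold change -2.90 ± 0.26, FDR 9.58e-06; -2.33 with library totals). By contrast 40S ribosomal protein S8 (TRINITY_DN3479_c0_g3) was -0.56 with TMM and 0.04 with library totals, without a call in the second. Splicing factor SYF1 (TRINITY_DN1246_c0_g2) was higher under both, by 2.26 ± 0.19 with TMM.

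Of 240 protein kinase and calcium signalling genes 28 were higher (11.7%) and 53 lower (22.1%), and of 98 cell wall and glycan genes 9 (9.18%) and 21 (21.4%). Over all named genes the shares were 12.8% and 12.3%. Library totals gave 64 and 29, and 24 and 8, against 1309 (27.1%) and 226 (4.68%) over all named genes. Calcineurin B-like protein 7 (TRINITY_DN26_c2_g1), a calcium sensor that in plants acts with kinases in salt responses, stood at 120, 228 and 343 CPM in marine libraries, against 960, 1630 and 1967 CPM in freshwater libraries (log2 fold change -2.94 ± 0.22, FDR 2.58e-06). UDP-glucose 6-dehydrogenase 5 (TRINITY_DN27_c7_g2), which makes precursors of acidic wall sugars, stood at 79.7, 232 and 326 CPM in marine libraries, against 786, 1136 and 1397 CPM in freshwater libraries (log2 fold change -2.60 ± 0.28, FDR 4.8e-05). Its model is only 413 bases long and holds no Pfam domain. Chitin synthase 2 (TRINITY_DN4857_c0_g1) was higher, at 213, 381 and 478 CPM in marine libraries, against 82.4, 124 and 171 CPM in freshwater libraries (log2 fold change 1.47 ± 0.13, FDR 1.02e-05).

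Membrane lipid and triacylglycerol assembly had 9 higher (21.4%) and 2 lower (4.76%) of 42 tested members. Fatty acid synthesis and desaturation had 2 (5.88%) and 5 (14.7%) of 34, and fatty acid breakdown and the peroxisome 8 (15.1%) and 12 (22.6%) of 53. Over all named genes the shares were 12.8% and 12.3%. Library totals gave 17 and 1, 5 and 2, and 16 and 2 for these lists, against 1309 (27.1%) and 226 (4.68%) over all named genes. 3-ketoacyl-CoA synthase 2 (TRINITY_DN157_c0_g2), which elongates very long chain fatty acids in plants, stood at 92.7, 142 and 180 CPM in marine libraries, against 1007, 1272 and 1466 CPM in freshwater libraries (log2 fold change -3.22 ± 0.20, FDR 6.57e-07). Long chain acyl-CoA synthetase 3 (TRINITY_DN1001_c0_g1), which activates fatty acids, stood at 259, 385 and 461 CPM in marine libraries, against 1031, 1541 and 1679 CPM in freshwater libraries (log2 fold change -2.05 ± 0.20, FDR 1.78e-05). An omega-3 desaturase (TRINITY_DN3865_c0_g1) was higher, with log2 fold changes of 1.77 in exponential and 0.17 in stationary phase, a difference that passed the test (FDR 6.85e-05).

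The other lists are given as higher and lower separated genes of those tested, to be read against 12.8% higher and 12.3% lower over all named genes. DNA repair and light receptors had 13 and 2 of 49, with most of the higher genes in repair. Histones and chromatin modifiers had 10 and 6 of 78, DNA replication and cell cycle 12 and 8 of 107, and flagella, dynein and tubulin 9 and 4 of 66. The flagella, dynein and tubulin list holds 450 members by name, and its direction depends on the filter. With edgeR's own filter on low counts it had 11 higher and 28 lower of 176, at a median log2 fold change of -5.58. The proteasome and ubiquitin system had 23 and 13 of 174, vesicle trafficking and autophagy 19 and 16 of 129, and transcription factors 9 and 7 of 67. Amino acid biosynthesis had 5 and 11 of 67, sugar and amino acid transporters 4 and 7 of 33, and ABC transporters 7 and 8 of 61. The Calvin cycle, carbon concentration and photorespiration had 5 and 3 of 28, carotenoid and isoprenoid biosynthesis 4 and 3 of 28, the oxidative pentose phosphate path 1 and 1 of 8 and transposon-derived transcripts 2 and 0 of 10. With library totals amino acid biosynthesis had 17 higher and 1 lower, sugar and amino acid transporters 9 higher and 4 lower and ABC transporters 17 higher and 3 lower. Over all named genes library totals gave 1309 (27.1%) and 226 (4.68%). Among single genes of these lists the Myb-related protein 2 gene (TRINITY_DN70_c1_g2) stood at 52.3, 123 and 170 CPM in marine libraries, against 756, 1273 and 1437 CPM in freshwater libraries (log2 fold change -3.54 ± 0.32, FDR 1.28e-05). Chromatin remodeling 24 (TRINITY_DN112_c0_g1) stood at 339, 362 and 408 CPM in marine libraries, against 1074, 1644 and 2137 CPM in freshwater libraries (log2 fold change -2.09 ± 0.18, FDR 7e-06). Coatomer subunit delta-1 (TRINITY_DN431_c0_g2), of vesicle coats, was higher by 3.08 ± 0.40, and the coat protein SEC31 (TRINITY_DN142_c0_g1) fell by 2.76 ± 0.45.

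**Figure D5:**
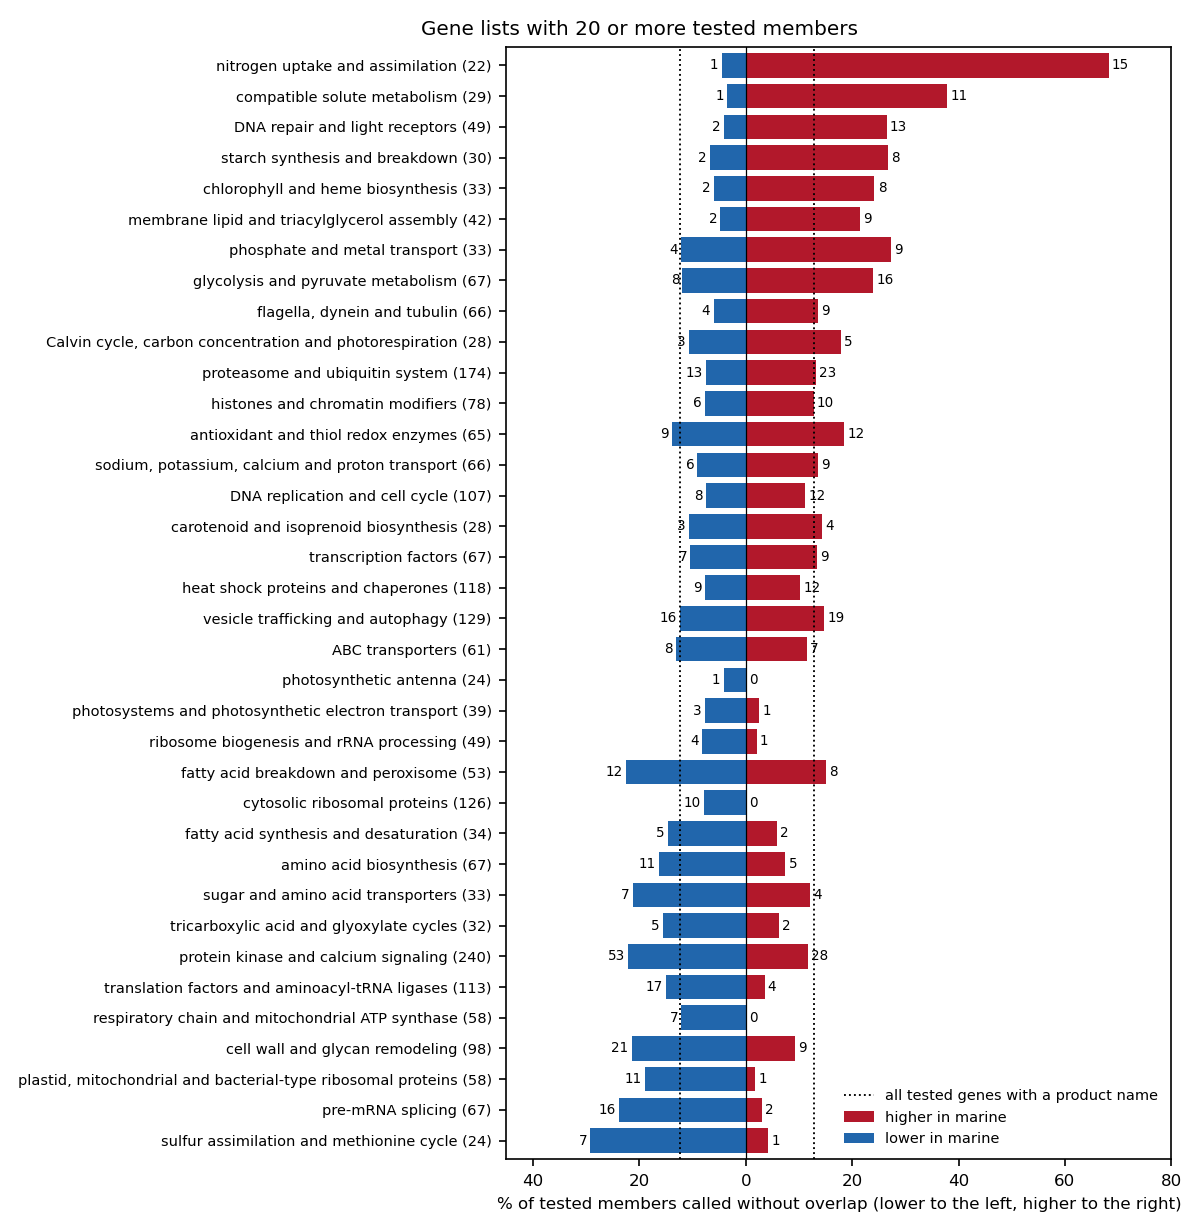
Percent of tested members that were separated, higher in marine medium to the right and lower to the left, for the lists with 20 or more tested members (number tested in brackets, gene counts beside the bars). Dotted lines mark the 12.8% higher and 12.3% lower among all tested genes with a product name. Nitrogen (15 of 22 higher) and sulfur (7 of 24 lower) stand at the ends. With library totals in place of TMM factors sulfur has 3 higher and 1 lower, splicing 9 higher and 3 lower and cytosolic ribosomal proteins 2 higher and 1 lower, against 1309 higher and 226 lower over the 4833 named genes. With edgeR's own filter on low counts cytosolic ribosomal proteins have 0 higher and 96 lower of 187.

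In some genes the fitted effects of the 2 phases were nearly equal. Dihydropyrimidine dehydrogenase (TRINITY_DN652_c0_g1), which breaks down pyrimidines, stood at 273, 298 and 322 CPM in marine libraries, against 145, 149 and 158 CPM in freshwater libraries (log2 fold change 0.97 ± 0.09, FDR 1.09e-05), with log2 fold changes of 0.96 in exponential and 0.98 in stationary phase. SKP1-like protein 1B (TRINITY_DN1230_c0_g1, 0.44 in exponential and 0.43 in stationary phase) and a subunit of the chloroplast Clp protease (TRINITY_DN2411_c0_g1, 0.35 in exponential and 0.35 in stationary phase) were higher by less. The Clp gene was called with only 2 of the 12 libraries left out in turn, and in neither phase by itself. On the lower side a probable lipid A 4'-kinase (TRINITY_DN6265_c0_g1) had -1.33 in exponential and -1.34 in stationary phase. These genes were picked for the closeness of the phase effects, so that closeness is a description.

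Markers of other organisms were few among the tested genes. Of 16 bacterial surface and flagellar markers 15 had no count in freshwater libraries and were not tested. The summed level of the 16 was 3.81 to 56.4 CPM in marine libraries and 0 to 1.76 CPM in freshwater libraries. Another 4 genes that entered that list through their name are acyltransferases, and 1 of them (TRINITY_DN1728_c0_g1) was its only separated gene. Animal markers (19 by name, 4 tested) summed to 214 to 439 CPM in marine libraries and 372 to 886 CPM in freshwater libraries, and without the truncated hemoglobins, which algae have too, to 0 to 103 CPM in marine libraries and 1.33 to 117 CPM in freshwater libraries over 11 genes. Of these, 1 truncated hemoglobin gene was higher (TRINITY_DN887_c0_g2) and 1 lower (TRINITY_DN722_c0_g1). Both fungal markers were chitin synthases, 1 of them separated. Best hits lay in Viridiplantae for 64.6% of the 618 named higher genes and 65.2% of the 595 named lower genes, against 54.8% of the 4833 named tested genes, and in bacteria other than cyanobacteria for 6.47% and 6.72%, against 6.10%. The part of other organisms in the salt effects was not tested.

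Separated genes were also looked up in the authors' deposited table of fold changes and adjusted p-values, which was made from the same libraries with another normalisation and is no independent support. By the authors' deposited table, 672 of the 1322 higher genes passed in both phases in the same direction, 438 in exponential phase only, 114 in stationary phase only and 98 in neither, and 3 were called in the opposite direction in a phase. Of the 1341 lower genes 1236 passed in both phases in the authors' deposited table, 7 in exponential phase only, 95 in stationary phase only and 3 in neither.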

How the data were processed

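Polyadenylated RNA was sequenced as paired reads in 12 libraries, per the labels. The authors deposited expected counts from RSEM 1.3.2 after Bowtie alignment to a Trinity assembly, per the submitters' processing notes and the series' design text; they are not normalised. The authors also deposited log2 fold changes and adjusted p-values from SVCD normalisation and DESeq2 1.20.0, and a Blast2GO table that gives product names, sequence lengths in bases and the E-value of the best hit. The authors' table of fold changes also holds a signal per group, the SVCD-normalised mean, which was not used for any value here. The TruSeq v2 kit named in the labels' protocols does not mark strand, so overlapping genes on opposite strands, near-identical copies and pieces of 1 locus can share or split reads.

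Rounding turned expected counts to whole numbers. Genes with at least 15 counts in each medium were fitted in edgeR 4.0.16 under R 4.3.3, with TMM factors and a model of phase plus medium over the 12 libraries. A gene was called where its quasi-likelihood F-test, after Benjamini-Hochberg adjustment across the 23472 genes, had an FDR under 0.05. The SE of a log2 fold change is its size over the square root of F. The difference between phases was the interaction of medium and phase, and effects per phase came from 1 mean per group. Counting depth limits low genes: a group value rests on 9378062 to 11280675 counts per library.

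Products and Pfam domains need an E-value of at most 1e-10. Lists are 41 patterns over product names and take in some genes by name alone. The rule for named genes took the 6 separated genes at each end of the log2 fold changes (mean log2 CPM from 4, E-value up to 1e-20), the most abundant separated gene per list and direction, and per direction the 3 genes with the most equal phase effects (mean log2 CPM from 6). To these, after values were seen, the separated members of 9 lists were added, together with genes of the same components. The members, lists and tests were chosen with earlier results of these data known. The procedure was tested on simulated counts. Alternatives were DESeq2 1.42.0, other scalings and filters, 1 mean per group, a replicate block, sums over shared-stem libraries and over components, and each library left out. Python 3.11.15 with pandas 2.3.3 and matplotlib 3.10.9 made tables and drawings. Pathway and synthesis tables of the series were not used here.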

Additional observations from a re-analysis of the deposited data

Results flagged for a closer look

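The salt effect differed between exponential and stationary phase, by the interaction of medium and phase in edgeR's quasi-likelihood test, for 2419 genes (10.3% of those tested) and for the 59 named genes below. With the shared-stem libraries summed 442 genes were called, 423 of them among the 2419, and of the 59 named genes 14 kept the call. These are TRINITY_DN2871_c0_g4, TRINITY_DN425_c0_g1, TRINITY_DN1371_c2_g1, TRINITY_DN546_c0_g3, TRINITY_DN1146_c0_g2, TRINITY_DN1746_c1_g1, TRINITY_DN728_c0_g1, TRINITY_DN3865_c0_g1, TRINITY_DN155_c0_g1, TRINITY_DN2089_c0_g1, TRINITY_DN1500_c0_g1, TRINITY_DN1664_c0_g1, TRINITY_DN34430_c0_g1 and TRINITY_DN1818_c0_g1. Each value is the salt effect in stationary phase minus that in exponential phase on the log2 scale, for genes with counts in every group. That of Protein MICRORCHIDIA 2 depends on the fit, since its freshwater stationary libraries held 0, 0.119 and 0 CPM.

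Among named genes higher in marine medium, the effect was larger in exponential phase for Serine/threonine-protein kinase TOUSLED (TRINITY_DN425_c0_g1) at -3.61, ABC transporter G family member 37 (TRINITY_DN1405_c0_g1) at -3.10, Nitrate reductase (TRINITY_DN580_c1_g1) at -2.65 and Dynein regulatory complex protein 11 (TRINITY_DN2871_c0_g4) at -2.53. The next were Sodium/potassium-transporting ATPase subunit alpha-B (TRINITY_DN155_c0_g1) at -2.48, Glycogen phosphorylase 1 (TRINITY_DN1146_c0_g2) at -2.27, Pyruvate decarboxylase 4 (TRINITY_DN1664_c0_g1) at -2.06 and Coatomer subunit delta-1 (TRINITY_DN431_c0_g2) at -1.99. Then came Glycerol-3-phosphate dehydrogenase (TRINITY_DN3114_c0_g1) at -1.94, Temperature-sensitive sn-2 acyl-lipid omega-3 desaturase (TRINITY_DN3865_c0_g1) at -1.60, Glutathione hydrolase 1 proenzyme (TRINITY_DN729_c0_g2) at -1.41 and Superoxide dismutase (TRINITY_DN816_c0_g1) at -1.40. Smaller differences were those of Alpha-amylase 3 (TRINITY_DN2089_c0_g1) at -1.30, High affinity nitrate transporter 2.6 (TRINITY_DN668_c1_g2) at -1.19, Peroxiredoxin-5 (TRINITY_DN2777_c0_g1) at -1.10 and General transcription and DNA repair factor IIH helicase subunit XPB2 (TRINITY_DN570_c0_g1) at -1.08. Last came Glutathione reductase (TRINITY_DN959_c0_g1) at -1.08, Probable galactinol--sucrose galactosyltransferase 6 (TRINITY_DN610_c0_g1) at -0.79, Nitrate reductase (TRINITY_DN384_c0_g1) at -0.67 and Glucose-6-phosphate isomerase (TRINITY_DN2078_c0_g2) at -0.66.

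Among named genes higher in marine medium, the effect was larger in stationary phase for Protein MICRORCHIDIA 2 (TRINITY_DN1371_c2_g1) at 5.46, Protein terminal ear1 homolog (TRINITY_DN760_c0_g2) at 2.52, Chlorophyll synthase (TRINITY_DN8715_c1_g1) at 1.72 and Sucrose synthase 3 (TRINITY_DN1500_c0_g1) at 1.37. The next were Excitatory amino acid transporter (TRINITY_DN327_c1_g1) at 1.35, Pyrroline-5-carboxylate reductase (TRINITY_DN2936_c0_g1) at 1.29, Lysophospholipid acyltransferase LPEAT1 (TRINITY_DN1728_c0_g1) at 1.10 and Pre-mRNA-splicing factor SYF1 (TRINITY_DN1246_c0_g2) at 0.99. Then came Peroxisomal primary amine oxidase (TRINITY_DN147_c0_g2) at 0.99 and Microsomal glutathione S-transferase 3 (TRINITY_DN1522_c0_g3) at 0.96.

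Among named genes lower in marine medium, the fall was larger in exponential phase for Alcohol dehydrogenase (TRINITY_DN34430_c0_g1) at 4.76, Chlorophyll a-b binding protein 1B-21 (TRINITY_DN546_c0_g3) at 4.55, NADP-specific glutamate dehydrogenase (TRINITY_DN2745_c0_g4) at 3.52 and Oxygen-dependent coproporphyrinogen-III oxidase (TRINITY_DN880_c5_g1) at 2.76. The next were Malate synthase (TRINITY_DN1209_c0_g1) at 1.52, Fructose-1,6-bisphosphatase (TRINITY_DN3611_c0_g1) at 1.48, ATP-dependent zinc metalloprotease FTSH (TRINITY_DN1636_c0_g1) at 1.47 and Peptide methionine sulfoxide reductase (TRINITY_DN2788_c0_g2) at 1.21. Then came Isocitrate lyase (TRINITY_DN176_c1_g1) at 1.03, Succinate dehydrogenase (TRINITY_DN1005_c0_g1) at 0.85, Protein CHROMATIN REMODELING 24 (TRINITY_DN112_c0_g1) at 0.83 and Beta-amylase 3 (TRINITY_DN2166_c0_g1) at 0.81. Smaller differences were those of ATP synthase gamma chain (TRINITY_DN1363_c0_g1) at 0.74, Probable 1-deoxy-D-xylulose-5-phosphate synthase (TRINITY_DN274_c0_g1) at 0.60 and Dynein, 78 kDa intermediate chain, flagellar outer arm (TRINITY_DN2109_c0_g1) at 0.58.

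Among named genes lower in marine medium, the fall was larger in stationary phase for Formate acetyltransferase (TRINITY_DN1348_c0_g1) at -2.37, Probable serine/threonine-protein kinase drkA (TRINITY_DN1130_c0_g4) at -2.33, Metal transporter nramp1 homolog (TRINITY_DN3078_c0_g1) at -2.31 and Thioredoxin-like protein HCF164 (TRINITY_DN1818_c0_g1) at -2.30. The next were Protein transport protein SEC31 homolog B (TRINITY_DN142_c0_g1) at -2.05, SPX domain-containing protein 2 (TRINITY_DN2825_c0_g1) at -1.92, Alternative oxidase (TRINITY_DN728_c0_g1) at -1.87 and Myb-related protein 2 (TRINITY_DN70_c1_g2) at -1.43. Then came 50S ribosomal protein L27 (TRINITY_DN966_c0_g1) at -1.15, Assimilatory sulfite reductase (TRINITY_DN1665_c0_g1) at -1.12, 6-phosphogluconolactonase 3 (TRINITY_DN1746_c1_g1) at -1.09 and Sphingolipid delta(4)-desaturase DES1-like (TRINITY_DN84_c0_g3) at -0.92. Smaller differences were those of 3-ketoacyl-CoA synthase 2 (TRINITY_DN157_c0_g2) at -0.82 and Cryptochrome-2 (TRINITY_DN320_c0_g1) at -0.61.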

How the results depend on the processing

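Counts of called genes, higher and lower, were 3279 and 2839 with DESeq2, 3754 and 948 with library totals, 4825 and 7534 with filterByExpr, 2123 and 4532 with no filter, 2795 and 2660 with 1 mean per group, 980 and 928 with the shared-stem libraries summed, and 1169 and 1186 with components summed, against 1807 and 1911. Separated genes were 2780 and 677 with library totals, 1870 and 2685 with filterByExpr, 1503 and 2795 with no filter, 908 and 870 with shared-stem libraries summed, and 898 and 838 with components summed. Values that did not overlap, called or not, numbered 3265 and 726 with library totals, 2092 and 2734 with filterByExpr, 2104 and 2965 with no filter, 2557 and 1377 with shared-stem libraries summed, and 1212 and 930 with components summed. Phase differences were called for 4954 genes with DESeq2 (which left 7647 genes without an adjusted p in the fit of medium), 442 with shared-stem libraries summed, 1402 with no filter, 1523 with components summed, and 1689 to 3339 with each library left out, the highest without marine stationary replicate 3. The other filters test other genes; the cause of the other changes was not tested. Leaving out each library gave 1160 to 1426 higher and 1299 to 1503 lower separated genes. No pairing of the samples by replicate number was detected, with correlations of deviations of -0.06 to 0.116 and 1 of 18 above 0.1. With 3 libraries per group, some of them with a shared stem, this check cannot exclude a pairing. With the number as a replicate block 1576 genes were called higher and 1699 lower, and 2008 phase differences. Of the 190 named genes, the sign of the log2 fold change turned with components summed for TRINITY_DN1371_c2_g1 -0.07, TRINITY_DN89_c5_g1 0.12, TRINITY_DN1260_c0_g3 -0.05, TRINITY_DN880_c5_g1 0.19, TRINITY_DN328_c2_g3 -0.25, TRINITY_DN1660_c0_g4 0.04, TRINITY_DN880_c2_g1 0.19, TRINITY_DN887_c0_g2 -0.59, TRINITY_DN668_c1_g2 -0.38, TRINITY_DN668_c1_g1 -0.38, TRINITY_DN1785_c0_g1 -0.21, TRINITY_DN307_c1_g3 -0.16, TRINITY_DN2150_c0_g2 0.70, TRINITY_DN458_c0_g1 -1.78, TRINITY_DN2196_c0_g1 -0.20, TRINITY_DN688_c1_g1 -0.37, TRINITY_DN1316_c2_g1 -1.0, and with library totals for TRINITY_DN3479_c0_g3 0.04, TRINITY_DN1414_c0_g1 0.15, TRINITY_DN1667_c0_g2 0.15, TRINITY_DN1305_c0_g1 0.01, TRINITY_DN4074_c0_g2 0.16, TRINITY_DN325_c0_g3 0.02; the cause was not tested. Depth and 15 counts per medium limit the calls of genes at a few CPM.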
